A study of Mus musculus with 3 samples.

Results

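Strong accessible sites without a footprint were examined in natural killer cells, innate lymphocytes that destroy virus-infected and tumour cells. DNase-seq was made from primary natural killer cells of male B6CASTF1/J mice, a cross of C57BL/6 and CAST, at 2 months of age. The 3 libraries form 1 group with no treatment, and all carry 1 donor label with different biosample labels, so their spread may be no more than technical. The labels name no sort or gate. Peaks of the 3 libraries that shared at least 1 bp were merged into 99408 regions, of which 35126 held a peak of every library. In 19216 of these the strongest peak lay above the median deposited signal of its own list in every library, and these are called strong shared regions. The 269 regions described here are those strong shared regions that overlapped no footprint in at least 2 libraries, 1.4% of 19216. The other 18947 had footprints in at least 2 libraries. Peak signal and footprints thus chose the 269 members, and neither is a finding about them.

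DNase I cuts DNA where nucleosomes are absent or loosened, so dense cuts mark accessible chromatin. A footprint is a short stretch inside accessible DNA with fewer cuts than its surroundings, commonly read as DNA covered by a bound protein. Factors with long residence on DNA, such as CTCF, an architectural zinc finger protein, tend to leave clear footprints, while factors that dwell briefly often leave none. Active promoters combine a nucleosome-depleted stretch at the start site with a well-placed nucleosome just downstream.

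The sequences shown are the 150 bp around the centre of the 3 strongest promoter members and of 2 of the strongest members elsewhere, with 2 footprinted regions of nearly the same strength, so that the covered bases can be compared by eye. They are the plus strand of the mm10 reference, which is C57BL/6, and CAST alleles were not examined. Capitals mark bases inside a footprint of at least 1 library.

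Ptger4, promoter member, chr15:5244666-5244815: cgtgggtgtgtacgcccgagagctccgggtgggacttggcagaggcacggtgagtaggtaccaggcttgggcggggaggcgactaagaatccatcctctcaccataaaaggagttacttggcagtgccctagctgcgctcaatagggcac
Klf6, promoter member, chr13:5860766-5860915: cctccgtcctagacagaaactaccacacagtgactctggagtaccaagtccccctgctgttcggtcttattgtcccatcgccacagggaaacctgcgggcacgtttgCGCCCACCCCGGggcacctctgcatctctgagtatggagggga
Saraf, promoter member, chr8:34155026-34155175: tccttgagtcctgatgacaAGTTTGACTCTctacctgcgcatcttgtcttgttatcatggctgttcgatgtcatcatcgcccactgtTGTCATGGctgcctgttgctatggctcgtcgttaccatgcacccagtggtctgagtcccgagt
upstream of Spen, member in an exon of a non-coding gene, chr4:141547006-141547155: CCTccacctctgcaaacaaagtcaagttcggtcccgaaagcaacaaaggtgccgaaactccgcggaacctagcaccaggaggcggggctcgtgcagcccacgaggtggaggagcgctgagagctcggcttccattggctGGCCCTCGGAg
Csnk1g2, intronic member, chr10:80623596-80623745: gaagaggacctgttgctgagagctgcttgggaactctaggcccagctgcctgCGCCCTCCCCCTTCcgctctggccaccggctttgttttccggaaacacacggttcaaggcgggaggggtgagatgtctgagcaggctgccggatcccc
Rufy1, footprinted promoter region, chr11:50431026-50431175: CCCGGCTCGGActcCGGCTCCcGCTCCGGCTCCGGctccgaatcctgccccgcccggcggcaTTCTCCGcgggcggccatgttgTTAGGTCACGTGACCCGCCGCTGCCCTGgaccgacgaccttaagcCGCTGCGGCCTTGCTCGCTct
Myh9, footprinted intronic region, chr15:77834426-77834575: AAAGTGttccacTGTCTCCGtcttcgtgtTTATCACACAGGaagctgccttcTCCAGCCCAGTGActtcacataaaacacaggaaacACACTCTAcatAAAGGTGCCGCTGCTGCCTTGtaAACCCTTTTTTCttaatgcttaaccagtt

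Within these windows the 5 members had from 0 bases (Ptger4) to 19 bases (Saraf) in a footprint of any library, and 0 bases in footprints of 2 libraries. The footprinted comparison windows had 85 bases in a footprint of any library at Rufy1 and 80 at Myh9, of which 38 and 30 were in footprints of at least 2 libraries. Since absence of footprints was the rule, this contrast describes the choice.

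Footprint-free regions often lay close beside a stronger, footprinted core. The prostaglandin E2 receptor gene Ptger4 and the perforin gene Prf1, shown in addition after its values were seen, illustrate it. The lines below give the window of the Prf1 member and those of the nearest strong region beside each, which were also chosen after their values were seen.

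Prf1, promoter member, chr10:61296976-61297125: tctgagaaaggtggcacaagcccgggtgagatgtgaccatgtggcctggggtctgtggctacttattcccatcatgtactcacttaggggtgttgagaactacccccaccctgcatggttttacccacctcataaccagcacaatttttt
Prf1, nearest strong region, chr10:61297626-61297775: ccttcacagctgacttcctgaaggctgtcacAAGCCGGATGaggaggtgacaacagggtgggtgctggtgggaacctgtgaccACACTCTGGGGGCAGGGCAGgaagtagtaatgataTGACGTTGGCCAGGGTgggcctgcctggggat
Ptger4, nearest strong region, chr15:5244186-5244335: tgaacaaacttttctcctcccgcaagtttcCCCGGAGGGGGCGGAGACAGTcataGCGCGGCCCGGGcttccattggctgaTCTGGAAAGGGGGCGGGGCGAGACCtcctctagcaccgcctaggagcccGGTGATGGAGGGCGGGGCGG

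At Prf1, whose product perforates the membrane of target cells, the member was 580 bp wide (chr10:61296901-61297480, mm10) and centred 782 bp upstream of the start site. The strongest peak of this member was 53, 300 and 560 bp wide in replicates 1, 2 and 3. Among promoter members it had the lowest ratio of observed to expected CpG dinucleotides, 0.126. Its deposited signal, whose scale is not stated, was 1.42, 0.879 and 1.91 in replicates 1, 2 and 3. That put it at percentiles 61.3, 52.3 and 71.6 of the peaks of each library, with 0 footprints in each. The strong region 80 bp away (chr10:61297561-61297840) had signals of 4.05, 6.01 and 10.2 and held 4, 6 and 5 footprints. It was thus the higher one in all 3 libraries. The Ptger4 member was 280 bp wide (chr15:5244601-5244880), with signals of 2.50, 4.03 and 4.30 and 1 footprint, in replicate 2. The neighbour, across a gap of 220 bp on the side of the start site, had 7.56, 15.2 and 17.9 with 5 footprints in every library. Its window held a GC box, the motif of SP and KLF factors.

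The libraries differed in size, from 40484 peaks and 101990 footprints in replicate 1 to 84564 peaks and 239483 footprints in replicate 2. Read depth is unknown from these files. Strong shared regions without a footprint numbered 717 in replicate 1 (3.73%), 264 in replicate 2 (1.37%) and 263 in replicate 3 (1.37%), so the smallest library had the most. Promoter peaks were present at 7, 9 and 9 of 9 natural killer marker genes in replicates 1, 2 and 3, at 7, 8 and 7 of 8 B cell genes, at 1, 6 and 3 of 8 T cell genes and at 0 of 6 neutrophil genes in each. Monocyte genes were open in 2, 3 and 3 of 6 cases, erythroid genes in 1, 2 and 3 of 5 and dendritic cell genes in 2, 3 and 2 of 5. The part of other cells in the results was not tested.

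Footprints were absent from 107 members in all 3 libraries. The other 162 had footprints in 1 library, which was replicate 1 for 39 members, replicate 2 for 73 and replicate 3 for 50, with at most 6, 5 and 6 footprints in a member. Equally strong footprinted regions held 2.58, 3.71 and 3.63 footprints each. The members without any footprint were at promoters in 87.9% of cases and those with footprints in 1 library in 69.8%. Their GC content averaged 63.1% and 62.4%, and their median width was 420 and 380 bp. Both kinds lay near another strong region, within 1000 bp in 99.1% and 95.1% of cases. The number of members rested on the libraries used. Without replicate 1, 695 regions were strong in both other libraries and free of footprints in both, and without replicate 3 there were 166.

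Members stood at the weaker end of the strong regions. Peak signal and footprints both entered the rule, so the values here describe the chosen set. Strength was taken as the mean over 3 libraries of the percentile of the strongest peak, and it ran from 52.9 to 84.1 in members with a median of 65.8. In footprinted regions the median was 83.5. Members made up 13 of 23 regions (56.5%) below percentile 55, 70 of 1647 (4.25%) from 65 to 70 and 6 of 2830 (0.212%) from 80 to 85. Above percentile 85 there were 0. The member signals spanned 1.09 to 2.94 in replicate 1, 0.847 to 4.93 in replicate 2 and 0.882 to 4.77 in replicate 3.

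**Figure D1:**
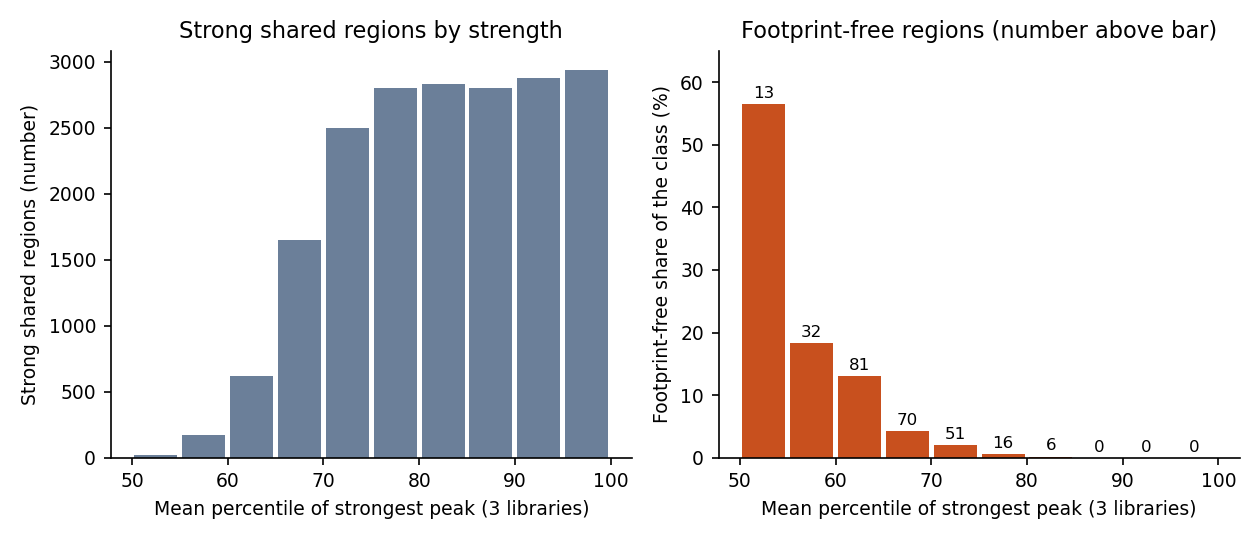
Left, number of strong shared regions in classes of 5 percentiles of mean strength. Right, the share of each class that was footprint-free, with the number of such regions above each bar, which falls from 56.5% in the weakest class to 0 above percentile 85.

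At the strength threshold, the 2 members nearest to it were promoter regions of Nudc, which encodes a dynein cofactor, and Sptbn1, a beta spectrin gene. Their lowest percentiles were 50.3 and 50.6, both in replicate 3. Just outside stood footprint-free regions near Psme3 and 1810013L24Rik, each held back by replicate 1 at percentile 50.3, with a signal equal to the list's median of 1.07. Percentiles above 50 there come from ties at that median. Of the 15910 regions found in all libraries that were not strong in all, 1589 (9.99%) were free of footprints in at least 2.

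Because members were weak among strong regions, the comparisons that follow set them against footprinted regions of equal strength, except where shares of all strong regions or genes are given. Those 9793 footprinted regions that fell within the members' range of strength were weighted so that each of 10 strength classes counted as in the members. Their mean strength was then 66.5, against 66.2 in members. No test across regions was made. Differences by each library's own footprints set strong shared regions without a footprint in that library against equally strong ones with a footprint. Their error is the spread between libraries (SD, n = 3). These sets of regions are not the members, and the libraries share the merged regions and their sequence. That spread is thus not an error of the members' own difference. Other errors are spreads between libraries over the same regions. An exact sign-flip test of 3 libraries cannot go below p = 0.25.

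Members concentrated at promoters, here 500 bp on each side of a start site of a protein-coding gene. Promoters held 207 of the 269 members (77.0%) and 32.1% of equally strong footprinted regions. Start sites of other genes held 7 members (2.60% against 4.34%), exons 14 (5.20% against 5.73%), introns 28 (10.4% against 33.6%) and intergenic sequence 13 (4.83% against 24.3%). By each library's own footprints, the promoter share of regions without a footprint exceeded that of equally strong regions with one by 28.8, 38.5 and 35.3 percentage points in replicates 1, 2 and 3. The mean was 34.2 ± 4.94 (SD, n = 3), so the difference was larger than the spread between libraries. Without matching for strength the difference of 44.8 points fell to 21.9, and among regions with another strong region within 1000 bp, where 260 of the members lie, to 24.6. Read the other way and without matching, 207 of 10639 strong promoter regions (1.95%) and 62 of 8577 others (0.723%) were members. With the stricter peak lists, 49 members were left and the shares at promoters were 75.5% and 48.7%.

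**Figure D2:**
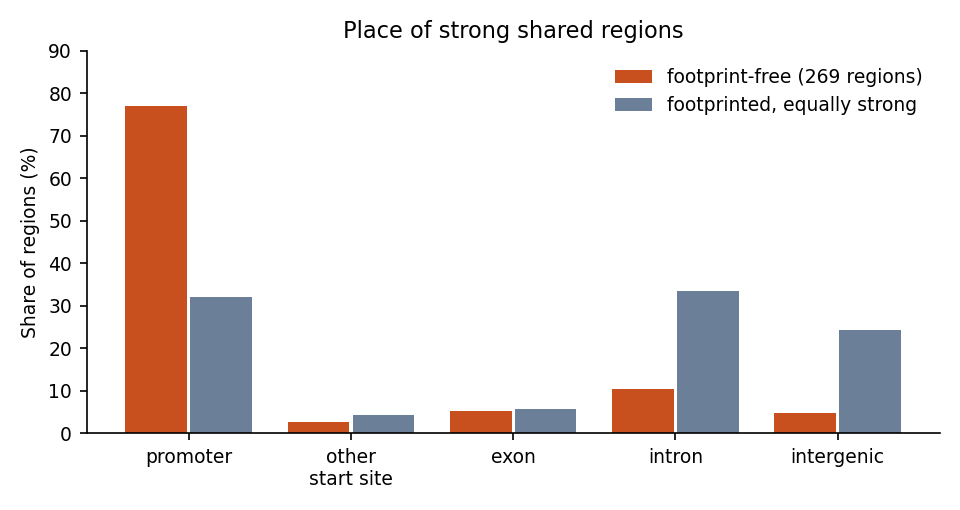
Share of regions (percent) by place for the 269 footprint-free regions and for footprinted regions weighted to equal strength. The promoter bar stands at 77.0% in the first and 32.1% in the second, and the intron and intergenic bars are lower in the first.

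At promoters, most members sat beside the start site. The centre of the 207 promoter members was a median of 377 bp from the nearest start, with quartiles of 180 and 535 bp, where equally strong footprinted promoter regions had a median of 69 bp. Members covered a start site in 29.5% of cases and footprinted regions in 68.6%. The centre lay downstream of the start in 76.8% of members and 47.9% of footprinted regions, and more than 300 bp downstream in 52.7% and 17.4%. It fell in an intron in 59.4% of promoter members against 31.8%, and in an exon in 33.3% against 46.3%. These comparisons were not limited to promoter regions with another strong region within 1000 bp.

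The strongest feature of the members beyond the rule was a close neighbour. Another strong shared region lay within 1000 bp of 260 members (96.7%), against 19.0% of equally strong footprinted regions, and within 500 bp of 234 members (87.0% against 12.8%). The median gap was 240 bp, with quartiles of 120 and 380 bp. Of those 260 neighbours, all 260 were footprinted and 257 (98.8%) had a higher mean percentile than the member, with a median of 94.4. Where an equally strong footprinted region had such a neighbour, it was footprinted in 99.3% of cases and stronger in 87.6%, so a neighbour of this kind was common to both, and the difference lay in how often there was one. Without matching for strength, members made up 234 of the 3491 strong regions that had another within 500 bp (6.7%), and 35 of the 15725 that had none (0.223%). Among regions of the same place the difference was also present, at 99.5% against 31.9% for promoters and 87.1% against 12.8% elsewhere.

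**Figure D3:**
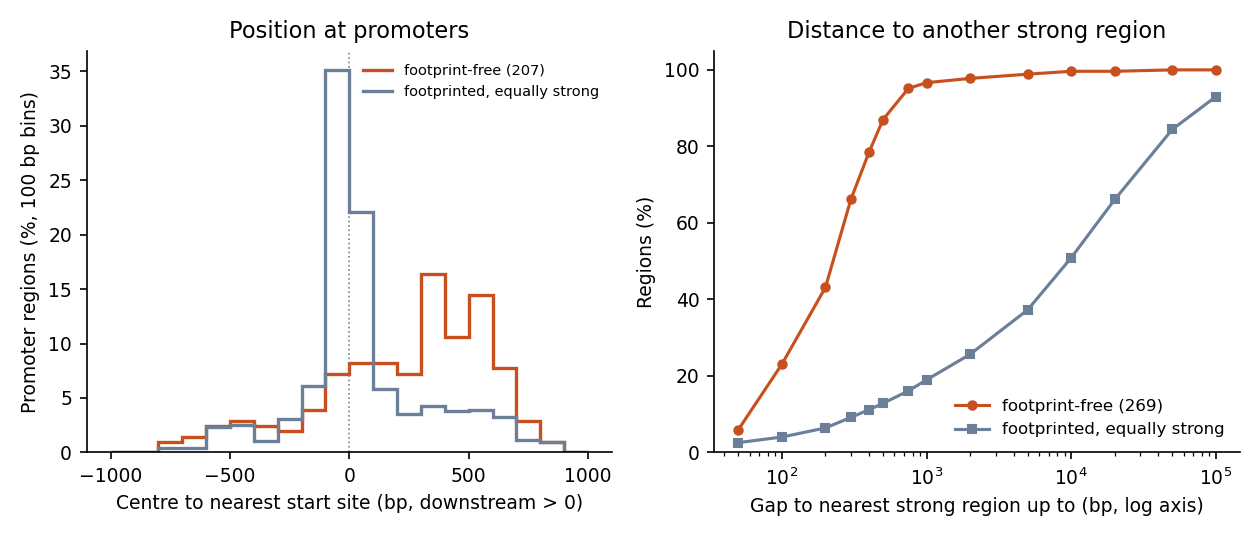
Left, distance (bp) from the nearest protein-coding start site to the centre of promoter regions, as a percent of regions in 100 bp bins. Right, share of regions with another strong shared region at a gap up to the distance on the log axis. Footprinted regions peak at the start site, while 52.7% of promoter members lie more than 300 bp downstream, and 87.0% of members have a neighbour within 500 bp.

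Each library's own peak list was also searched for the nearest other peak of any strength. That peak could belong to the same merged region, as at Sptbn1 in replicate 2, with a gap of -240 bp, an overlap. It could also lie outside the strong shared regions. Near Mapk14 the gaps were 143, 120 and 140 bp, while the nearest strong region was 5600 bp away. Of the 269 members, 225 had 1 peak in every library. Another peak of the library lay within 500 bp of 85.9%, 85.5% and 84.8% of members in replicates 1, 2 and 3, against 29.4%, 38.0% and 38.8% of equally strong footprinted regions. That nearest peak was the stronger of the pair in 78.5% ± 1.94 of cases (SD, n = 3). Its signal was 2.94, 4.33 and 4.46 times that of the member at the median, and it held footprints in 81.1% ± 0.610 of cases. These values of the nearest peak are given for members alone. When regions were instead chosen by each library's own footprints, those without a footprint had a peak within 500 bp more often by 42.0 ± 2.73 percentage points, in 3 of 3 libraries. A nearest peak within 500 bp that was also stronger was more frequent by 49.5 ± 0.89 points, in 3 of 3 libraries.

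Members had few footprints at their centre and many in the flanks. Within 100 bp of the centre, members had 1.39 ± 0.211 footprints per kb (SD, n = 3) and equally strong footprinted regions 13.1 ± 2.49, a contrast fixed by the rule. From 300 to 700 bp away the order was the opposite, with 5.78 ± 0.925 per kb around members and 0.989 ± 0.271 around footprinted regions. Wide regions reach into that distance, where the rule counted their footprints. With regions that ended within 300 bp of their centre alone, 203 members among them, the values were 5.91 ± 0.930 and 0.839 ± 0.246. Peaks covered 25.6% ± 0.375 of positions at that distance from members and 9.28% ± 1.53 from footprinted regions. The comparison was matched for strength alone. Another strong region within 1000 bp was present for 96.7% of members and 19.0% of the comparison. The flank contrast is thus not separate from that in neighbours, and flanks among regions with a neighbour were not tested. Of members without a footprint in a library, 88.3%, 92.9% and 92.7% had one within 500 bp of the region in replicates 1, 2 and 3.

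**Figure D4:**
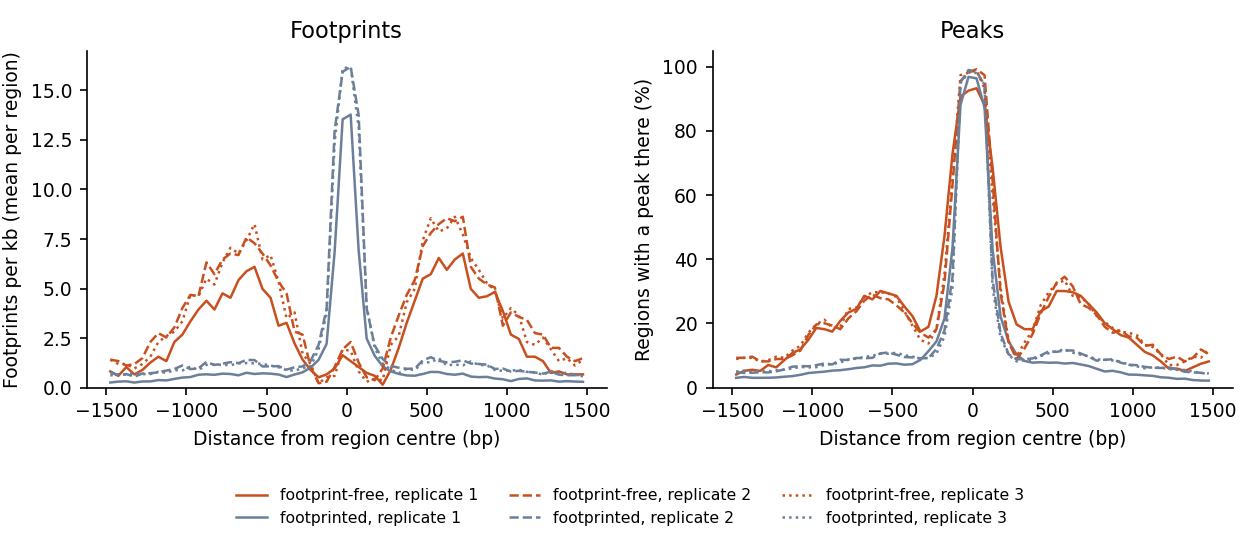
Mean number of footprints per kb (left) and share of regions with a peak (right) by distance from the region centre in 50 bp bins, for each of the 3 libraries. Members have few footprints at the centre and more than footprinted regions at 300 to 700 bp on both sides, where they average 5.78 per kb.

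Members, like equally strong footprinted regions, were listed as accessible over nearly their whole length. The authors' intervals with a false discovery rate (FDR) up to 0.05 for the cut rate covered 98.8% ± 1.85 of member bases per region and 98.0% ± 2.40 of those in equally strong footprinted regions (SD, n = 3). The lowest FDR in a region, as -log10, averaged 18.1 and 17.7. That difference, 0.463 ± 1.07, was smaller than the spread between libraries. Neither the coverage nor the lowest FDR is independent of the peaks and their signal, by which the regions were chosen and matched.

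Members were wider than equally strong footprinted regions. Their mean width was 427 bp against 332 bp, and their medians were 400 and 280 bp. The strongest peak itself averaged 339, 315 and 306 bp in members in replicates 1, 2 and 3 and 272, 254 and 246 bp in footprinted regions. By each library's own footprints the regions differed by 76.8 ± 12.3 bp (SD, n = 3). Within promoters the means were 445 and 402 bp, and elsewhere 366 and 294 bp. The difference of 94.9 bp was 36.8 bp among regions with another strong region within 1000 bp and 48.1 bp with the stricter peak lists.

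GC content was high in members but close to that of other promoters. Over all places it averaged 62.7% in members, from 42.9% to 81.4%, and 56.1% in equally strong footprinted regions. By each library's own footprints the difference was 4.62 ± 0.603 percentage points (SD, n = 3) and above 0 in 3 of 3 libraries. Among promoter regions alone the means were 64.2% and 63.3%, and the medians, 64.3% and 64.6%, lay in the other order. Away from promoters, where members were more often close to a start site, the means were 57.8% and 52.6%. When strong meant above the 75th percentile in each library, the 6 members left averaged 58.4% and the comparison 59.2%, so the direction turned. The difference of 6.55 points was 3.14 without matching for strength, 3.97 among regions with another strong region within 1000 bp and 3.98 with the stricter peak lists. The ratio of observed to expected CpG dinucleotides averaged 0.694 in members and 0.440 in footprinted regions, and 0.748 against 0.673 among promoters. Bases masked as repeats in the reference made up 5.53% of member sequence and 8.97% of the comparison, and 5.08% against 5.73% among promoters. Without matching for strength that difference of -3.44 points was -1.19.

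The search for 31 short motifs on both strands of the 150 bp window found 21 of them in a smaller share of members than of equally strong footprinted regions. The letters searched are a description of sequence and not of binding. CTCF differed most, with 3 members (1.12%) against 9.0%, where 5.56% of all merged regions had it. By each library's own footprints the CTCF share differed by -11.3, -4.89 and -8.27 percentage points, a mean of -8.17 ± 3.23 (SD, n = 3). All these values rest on a split by footprints, which CTCF tends to leave. The CTCF contrast is therefore not independent of the rule that chose the members. Away from promoters the motif was found in 0 of 62 members, against 12.6% of the comparison. A count of 0 of 62 allows a share of up to 4.84% if regions are independent. That limit covers counting error only and is no test against the comparison. Among promoters it was found in 3 of 207 (1.45% against 3.12%). Among regions with another strong region within 1000 bp the shares were 1.15% and 3.04%. The 3 members lay at Jmjd6 with Mettl23, Kidins220 and Chd9.

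RUNX (TGTGGTT), the motif of Runx factors of lymphocytes, was found in 9 members (3.35% against 6.44%, and 7.38% of all merged regions). The E protein motif CAGCTG was found in 23 (8.55% against 11.6%, 11.2% of all) and AP-1 (TGANTCA) in 10 (3.72% against 5.90%, 6.99% of all). Within places these differences shrank or turned. RUNX differed by -0.495 percentage points among promoters and -1.47 elsewhere. The E protein share was 7.25% against 10% among promoters and 12.9% against 12.3% elsewhere. For AP-1 the shares were 2.415% against 3.176% among promoters and 8.065% against 6.965% elsewhere. TATAAA was found in 2 (0.743% against 2.41%, 3.93% of all). The E-box CACGTG, which shares the frame CANNTG with the E protein motif but not its letters, went the other way, with 15 members (5.58% against 3.62%, 4.38% of all). Away from promoters it was in 6 of 62 (9.68% against 3.57%), while among promoters the shares differed by -0.0566 percentage points. NRF1 (GCGCATGCG), ZNF143 (ACTACAANT) and ZBTB33 (CTCGCGAGA) were in 0 of 269 members, which allows up to 1.12%, and in 0.488%, 0.239% and 0.0493% of the comparison. At these low shares members could not be told apart from the comparison. These limits cover counting error only.

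The 10 strongest promoter members lay at Ptger4, Klf6, Saraf, Nfya, Coro1c, Pdcd10, Sesn3, Pcmt1, Inka1 and Ino80, in order of mean strength from 83.1 to 76.9. At Klf6, a Krüppel-like zinc finger factor gene, the member (chr13:5860681-5861020) was centred 641 bp upstream of the start, with signals of 2.91, 3.62 and 3.20. At Saraf, a regulator of store-operated calcium entry, it (chr8:34154881-34155200) was centred 420 bp downstream, with 2.30, 3.54 and 4.47. Both had a strong region within 200 bp, at mean percentiles of 99.7 and 99.2. At Nfya, a subunit of the CCAAT-binding factor NF-Y, the member lay 637 bp downstream, at percentiles 66.6, 88.5 and 82.4, beside a region at 99.9. At Coro1c, an actin-binding coronin, the gap to the next strong region was 500 bp, and at Sesn3, a stress-induced regulator of growth signalling, 140 bp. At Pdcd10, a scaffold of cell junction signalling, the member was 580 bp wide and centred 288 bp downstream. At Pcmt1, which repairs damaged aspartate residues, Inka1, an inhibitor of a PAK kinase, and Ino80, a chromatin remodelling ATPase, the members lay 510, 331 and 532 bp downstream. Thus 8 of the 10 were downstream of the start, and each of the 10 had a stronger region within 500 bp.

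Away from promoters, 9 of the 10 strongest members were nearest to the start sites of Spen, Csnk1g2, Kri1, Hist2h4, Tnrc18, Sfr1, Epc2, Dhx34 and Hivep2, from mean strength 83.6 to 75.4. The Spen member, named for the nearest start site of a transcriptional repressor gene 8.5 kb away (chr4:141546841-141547200), had 2.36, 4.62 and 4.77. The member at Csnk1g2, a casein kinase gene, lay in an intron 833 bp downstream of the start (chr10:80623541-80623800), with 2.03, 3.90 and 4.49. The neighbours of the Spen and Csnk1g2 members, at 77.6 and 81.0, were weaker than these members, unlike those of the other 7. Several were close to a promoter although outside it, at 752 bp from Kri1, a ribosome biogenesis gene, 881 bp from Sfr1, a recombination repair gene, 890 bp from the histone gene Hist2h4 and 1197 bp from the zinc finger factor gene Hivep2. Within the window, the members near Kri1 and Tnrc18 held the IRF motif GAAACTGAA, and these were the 2 members with it.

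**Figure D5:**
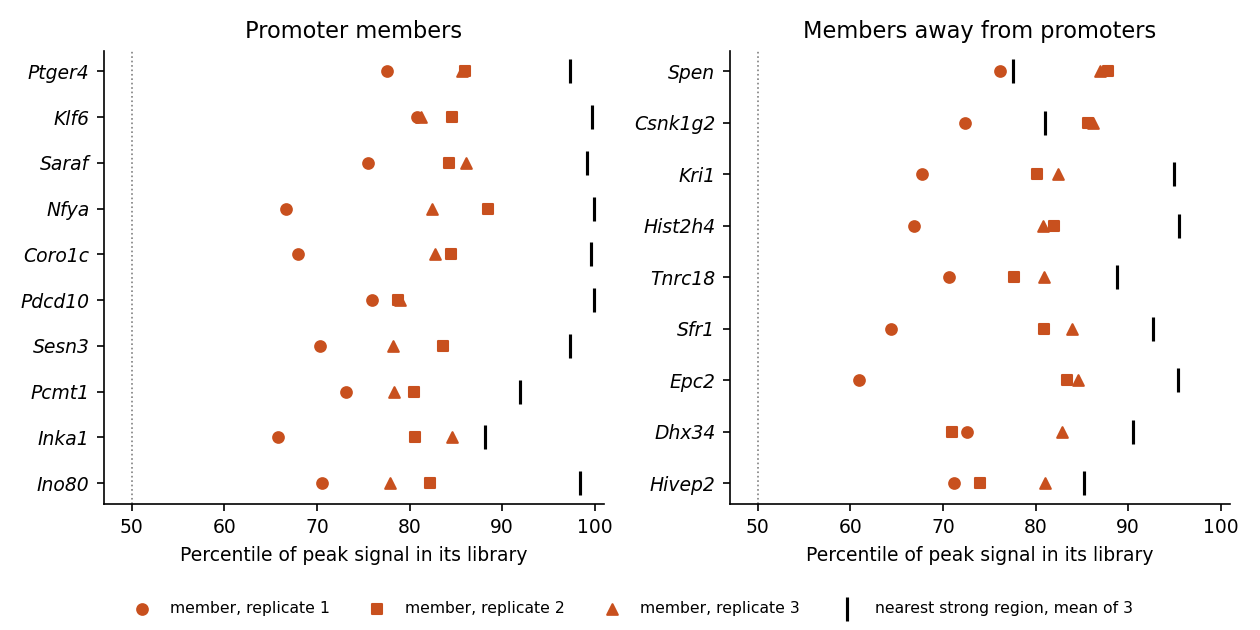
Percentile of peak signal within its library for the 10 strongest promoter members and 9 of the 10 strongest others, labelled by nearest start site, with 1 symbol per replicate, and the mean percentile of the nearest strong region as a bar. The bar lies above the member's mean in all but the Spen and Csnk1g2 members.

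Members were at the promoters of 229 genes of the 9920 that had any strong promoter region (2.31%), and 223 of these genes also had a footprinted strong region at the promoter. The gene lists are too short to be told apart from that share. Of 18 cytotoxic genes with a strong promoter region 1, Prf1, had a member (5.56%). None was found among 11 receptor genes, 21 transcription factor genes, 19 cytokine signalling genes and 12 trafficking genes of natural killer cells, nor among 15 immediate early genes, 87 ribosomal protein genes and 45 complex I genes. A count of 0 allows a share from up to 3.45% in the longest of these lists, the 87 ribosomal protein genes, to up to 27.3% in the shortest, the 11 receptor genes, all above 2.31%. Housekeeping genes with a member were Ywhaz, a 14-3-3 protein gene, and Vcp, an ATPase of protein extraction, 2 of 24 (8.33%). The mitochondrial ribosome gene Mrps23 was 1 of 77 (1.3%), the histone gene Hist1h3a 1 of 49 (2.04%), and Zfp341, Zfp398, Zfp568, Zfp646 and Zfp668 were 5 of 261 zinc finger genes (1.92%), of which Zfp646 and Zfp668 share a region.

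At Ywhaz the member (chr15:36793061-36793420) was centred 31 bp upstream of the start, with signals of 1.32, 2.44 and 2.29 and a GC content of 80.3%, beside a region at percentile 98.6. At Vcp it lay 742 bp downstream, with 1.30, 1.91 and 1.77, and at Hist1h3a 365 bp downstream, with 1.30, 1.81 and 1.65. At Mrps23 it lay 417 bp upstream, with 1.10, 1.21 and 1.28. All 4 had their lowest percentile in replicate 1 and had another strong region within 280 bp. Over all members the mean percentile was 59.1, 69.7 and 69.9 in replicates 1, 2 and 3. In equally strong footprinted regions it was 57.3, 70.1 and 72.1, so a low replicate 1 was common to both.

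Only 9 members had no other strong region within 1000 bp, and they are named here after their values were seen. They were nearest to Ncoa2, Trio, Mapk14, Rapgef1, Pogz, Jun, Klf14, Spr and Zbtb16. Of these 6 lay in introns and 1, at the nuclear receptor coactivator gene Ncoa2, at a promoter. The Ncoa2 member had no footprint in any library, and the other 8 had footprints in 1 library. The most isolated was the member near Zbtb16, which encodes the zinc finger factor PLZF, with the next strong region 42920 bp away. Its signals were 1.45, 1.90 and 3.63, its footprints were 0, 0 and 4, and its window held AP-1, nuclear receptor (AGGTCA) and TATAAA matches.

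Members lay on 20 chromosomes, with 1 on chromosome X (0.372% against 1.73% of equally strong footprinted regions), in cells from male mice.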

How the data were processed

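DNase-seq peaks, footprints and cut-rate intervals of 3 libraries of natural killer cells were analysed. Per the labels, the lists were called per library on mm10 from filtered alignments. Aligner and caller names were not given in the sources used here. The signal of each peak is the value the authors deposited, on a scale not stated, and was used as ranks or ratios within a library. The deposited FDR values (q-values) reach 0.05, and the deposited footprint score, constant at 0.01, was not used. The members and gene lists were chosen with earlier results of these data known. The wider peak list was merged at 1 bp overlap in Python 3.11.15 (numpy 2.4.6, pandas 2.3.3, pysam 0.24.0). Merging and footprint overlaps were checked with bedtools 2.31.1, with 0 differences, and the weighting was tested on simulated data. Places and genes came from GENCODE for GRCm38 (mm10) with 93517 start sites of 21951 protein-coding genes, and sequence from RefSeq's GRCm38. Named regions are the 10 strongest promoter and 10 strongest other members, members of the lists, and 2 regions on each side of the strength threshold. 1 of them is not reported here. Named motifs are the 6 with the largest differences and those with no match. Alternatives changed the peak list, footprint rule, strength cut and matching, promoter width, motif window and libraries. Those by place, by neighbour and with start sites of coding transcripts were chosen after seeing the data.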

Additional observations from a re-analysis of the deposited data

How the results depend on the processing

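Differences are members minus equally strong footprinted regions, as promoter share (44.83 percentage points), GC content (6.55 points), width (94.9 bp), repeat-masked share (-3.44 points) and share with a strong region within 1000 bp (77.69 points). The differences in promoter share, width, repeat-masked share, neighbours and CTCF motif kept their direction under every alternative run, and that in GC content under all but 1. The cause of each shift was not tested.

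With the stricter peak lists there were 49 members, and the differences were 26.82 points (promoter), 3.978 points (GC), 48.11 bp and -5.061 points (repeats). With no footprint in any library against footprints in all 3 there were 107 members and the promoter difference was 57.44. Above the 75th percentile in each library only 6 members were left, too few for a stable value. Their GC difference turned to -0.7799, with 17.2 (promoter), 76.7 bp and -1.827 (repeats). Without strength matching the values were 21.89, 3.136, 124.8 bp and -1.191. With classes of strength and width they were 34.62 (promoter) and 5.256 (GC), and the width difference, 1.097 bp, was removed by construction. Promoters of 1000 bp on each side gave 51.61.

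Among promoter regions alone, the differences were 0.8248 (GC), 42.59 bp, -0.6483 (repeats) and 67.59 (neighbours). Away from promoters they were 5.119 (GC) and 72.32 bp. Among regions with a strong region within 1000 bp they were 24.57 (promoter), 3.97 (GC) and 36.78 bp. The CTCF motif, at -7.884 points, gave -1.665 among promoters, -12.59 elsewhere and -1.889 beside a strong region. Between 18 and 25 of 31 motifs were less frequent in members, against 21.

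Leaving out each library in turn gave 166 to 695 members, promoter differences of 47.51 to 49.97, widths of 88.54 to 108.9 bp, and repeat differences of -5 to -3.643. Each such setting used regions strong in both and free of footprints in both. With 1 group there were no samples to pair between groups, and the differences within each library stand beside the results. Read depth is unknown, so which footprints each library could detect was not measured.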
